A study of Mus musculus with 2 samples.

Results

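The mitochondrial ribosome and the protein import machinery were examined in mouse gastrocnemius, a mostly fast-fibre calf muscle, through every gene that the array design names Mrpl, Mrps, Timm or Tomm followed by a digit. These names cover 94 genes of the 21595 gene symbols on the array. They are 46 Mrpl genes for the large ribosomal subunit, 29 Mrps genes for the small subunit, and 19 import genes. Of the import genes, 7 are Tomm genes, named for the outer membrane, and 12 are Timm genes of the inner membrane or the intermembrane space. Groups follow the names, so the outer import genes include Tomm34, a cytosolic protein. The control sample was RNA of 6 male C57BL/6 mice, 9 weeks old, and the denervated sample was RNA of 6 such mice whose muscle had been without its nerve for 14 days from the age of 7 weeks. One label calls the controls sham controls and another only controls, so whether they were operated on is unclear. No transgene or mutant allele is named for either group. Each pool was hybridised to 1 array, so there is no replicate and no test, and each difference describes these 2 pools.

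Mitochondria keep their own ribosomes, which make a small set of hydrophobic subunits of the respiratory chain and the ATP synthase from mitochondrial messenger RNA. All proteins of these ribosomes are encoded in the nucleus, made in the cytosol and imported, as are most other mitochondrial proteins. Precursors cross the outer membrane through the TOM complex and are then passed to the TIM23 complex, which serves proteins with a presequence, or through the small Tim chaperones to the TIM22 complex, which inserts carrier proteins. Skeletal muscle is rich in mitochondria, and nerve-driven activity is known to raise their content.

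Values are processed intensities, given for the control and then the denervated array. Differences are on the log2 scale, denervated minus control, after each array was divided by its own 75th percentile, which was 788 for the control and 1063 for the denervated pool. A difference of 0 therefore stands for an unscaled signal that is higher on the denervated array by the ratio of these percentiles. The technical error that the scanner software gives for a difference, printed after ±, was 0.20 for the median gene of the group and holds no spread between mice. For bright probes it follows almost wholly from a preset error of 10% per array and is not estimated from these data. A probe counted if both arrays had it well above background and below saturation, and the brightest such probe of a gene gave its value. Levels of different genes were not compared, since each probe has its own brightness.

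Of the 94 genes, 93 were measured, through 151 of 160 probes. The exception was Timm8a2, a small Tim gene whose only probe was above background in the control pool alone (23.7 against 17.4). Against the lowest detected signal of the denervated array (17.9), the control stood 1.78-fold higher after scaling. The technical error of this probe's log2 difference was 0.55, so the bound is not firm. The other 8 probes that missed the filter belonged to genes with a brighter probe. The control signals of the measured genes ran from 677 for Tomm40 to 115595 for Mrpl51, with a median of 10314, and no probe was saturated. Of all probes, 70.9% (control) and 68.4% (denervated) were well above background. All 10 skeletal muscle marker genes were measured, with control signals of 45979 to 582258.

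Transcripts of the mitochondrial ribosome and the import machinery differed little between the pools as a group. Their median difference was -0.10, beside -0.11 over all 15433 measured genes, and the middle 50% of them lay between -0.38 and 0.14. Of the 93 genes, 56 were below 0 (60.2%), beside 57.2% of all measured genes. At least 2-fold lower were 2, Mrpl34 and Tomm40l (2.15% of the 93), beside 8.52% of all measured genes, and 0 were at least 2-fold higher, beside 6.98%. The group's centre thus lay near that of all genes, and smaller shares of it passed 2-fold.

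The differences were narrowly spread, with an SD over genes of 0.38, against 0.85 over all measured genes, and 76 of the 93 genes (81.7%) lay within 0.5 of 0, against 56.2% of all genes. Genes of like brightness were as spread as the array as a whole: among 2397 other genes whose mean signal lay within the middle 50% of the group's, the SD was 0.83, the median -0.01, and 58.2% lay within 0.5 of 0. Lower by 0.5 or more were 14 genes of the group, beside 26.4% of all measured genes, and higher by 0.5 or more were 3, beside 17.5%. Across the 93 genes the difference had little relation to the mean log2 signal (Pearson's r -0.05, Spearman's rho -0.07, points sharing the same 2 arrays).

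The 3 groups overlapped over most of their range. The median difference was -0.08 over the 46 large-subunit genes (from -1.28 to 0.50), -0.16 over the 29 small-subunit genes (from -0.88 to 0.69) and -0.06 over the 18 measured import genes (from -1.03 to 0.60). Below 0 were 27 of 46 (58.7%), 19 of 29 (65.5%) and 10 of 18 (55.6%), beside 57.2% of all measured genes. The large-subunit median lay 0.08 above the small-subunit median, and the import median lay 0.04 above that of both subunits together. The SD over genes was 0.36 in the large subunit, 0.39 in the small subunit and 0.43 in import. Outer and inner import genes stood further apart, with medians of 0.27 over 7 Tomm genes and -0.25 over 11 Timm genes, a gap of 0.52. The gap was 0.36 with the mean of a gene's probes (medians 0.14 and -0.22) and 0.31 with the probe of smallest difference (medians 0.14 and -0.18). Of the 7 Tomm genes 2 were below 0 (28.6%), and of the 11 Timm genes 8 were (72.7%). With spike-in scaling 1 Tomm gene and 4 Timm genes were below 0, beside 32% of all measured genes.

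**Figure D1:**
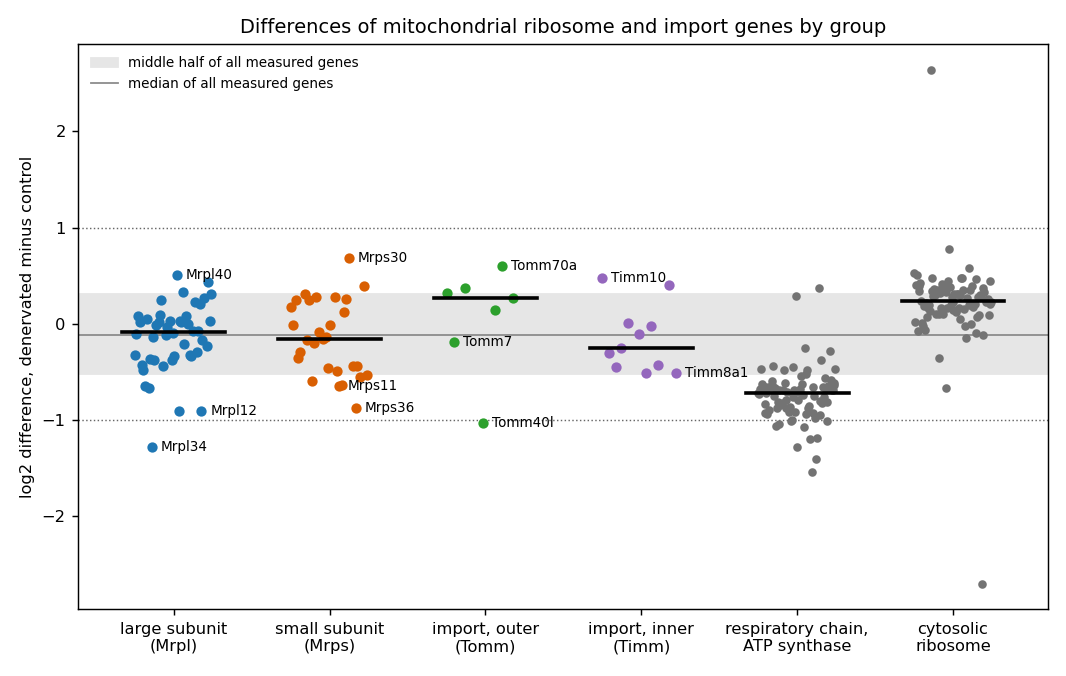
Log2 difference of each measured gene (points) in the large subunit, small subunit, outer import and inner import groups, and in 2 comparison groups, with group medians as black bars. The grey band is the middle 50% of all measured genes and the dotted lines mark 2-fold; the ribosome and import genes sit around 0, while the respiratory chain and ATP synthase subunits centre on -0.72.

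Nuclear-encoded respiratory chain and ATP synthase subunits, which apart from complex II are built together with subunits made on these ribosomes, were lower as a group. Chosen by name, 84 such entries were on the array and 82 were measured, with a median difference of -0.72, and 80 of the 82 were below 0. The medians were -0.71 for complex I (37 genes), -0.99 for complex II (4 genes), -0.76 for complex III (7 genes), -0.66 for complex IV (16 genes) and -0.76 for the ATP synthase (18 genes). The median of the ribosome and import genes lay 0.62 above that of the respiratory subunits. Only 5 of the 93 ribosome and import genes lay at or below the respiratory median, and 80 of the 82 respiratory subunits lay at or below the median of the ribosome and import genes. The names include Atp5f1, an older symbol of the listed Atp5pb, and Ndufa12l (0.29), now Ndufaf2 and an assembly factor. Without these 2, a choice made after the values were seen, the median was -0.72 and 79 of 80 were below 0. Respiratory subunits gave brighter probes, with a median control signal of 92247 against 10314. With centring that follows the signal (loess) their median was -0.52 and that of the ribosome and import genes -0.05. In RNA of whole muscle, fewer cells of a type and less RNA per cell cannot be told apart. Cytosolic ribosomal protein genes lay on the other side of 0, with a median of 0.24 over 82 measured genes and 11 of them below 0.

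**Figure D2:**
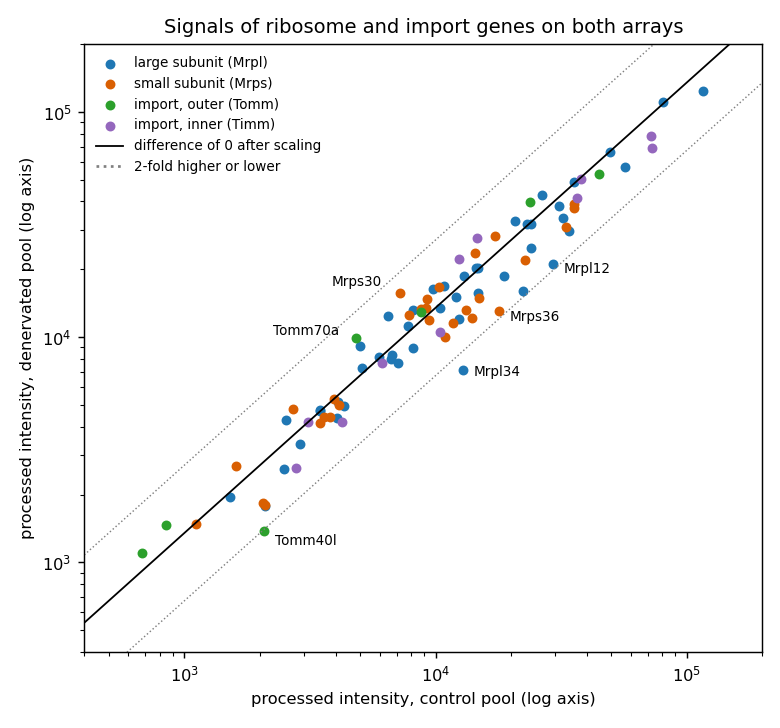
Processed intensity of each measured gene on the control array (x axis, log scale) and the denervated array (y axis, log scale). The solid line marks a difference of 0 after scaling and the dotted lines 2-fold; Mrpl34 and Tomm40l lie past the lower line, and no gene lies past the upper one.

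In the large subunit the lowest gene was Mrpl34, the homologue of bacterial ribosomal protein L34. Its signal was 12816 in the control and 7123 in the denervated pool, a difference of -1.28 ± 0.20 or 2.43-fold lower. It was read by a single probe, which lies on chr8:74394616-74394675 in mm8. With spike-in scaling it stood at -0.88 and without scaling at -0.85, both under 2-fold. Mrpl12, the stalk protein whose bacterial counterpart draws translation factors to the ribosome, followed with 29260 and 21083 (-0.91). For Mrpl18, related to a bacterial 5S rRNA binding protein, signals were 22207 and 16005 (-0.90), and its 3 probes lay between -1.04 and -0.90. Mrpl19, the homologue of bacterial L19, had 2093 and 1778 (-0.67). All 4 had a lower unscaled signal in the denervated pool as well.

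The large-subunit genes with the highest differences stayed under 2-fold. Mrpl40, a protein of the mitochondrial ribosome with no bacterial counterpart, had 6495 in the control and 12437 in the denervated pool (0.50), and its 3 probes lay between 0.50 and 0.61. Mrpl17, the homologue of bacterial L17, had 5008 and 9134 (0.43). Mrpl10, which anchors the stalk that carries Mrpl12, had 2547 and 4309 (0.33). Mrpl10 and Mrpl12, neighbours in the ribosome, thus lay on opposite sides of 0. The brightest large-subunit probes belonged to the mitochondria-specific Mrpl51 (115595 and 123800, -0.33) and to Mrpl33, the homologue of bacterial L33 (80726 and 110682, 0.02), both within 0.5 of 0.

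Large-subunit proteins with a bacterial homologue and those classed as mitochondria-specific had medians of -0.14 over 29 genes and 0.01 over 19 genes. Below 0 were 19 of the 29 and 8 of the 19, beside 57.2% of all measured genes. The second class includes Mrps18a and Mrps30, which carry small-subunit names although structures place both proteins in the large subunit. Counting these 2 genes with the large subunit and leaving out Mrps36 gave medians of -0.07 for the large and -0.16 for the small subunit. The small-subunit differences then ran from -0.65 (Mrps11) to 0.40 (Mrps18b).

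Among the Mrps names the lowest gene was Mrps36, whose protein is a subunit of the 2-oxoglutarate dehydrogenase complex of the citric acid cycle. Its signal was 17843 in the control and 13106 in the denervated pool (-0.88), and its second probe stood at -1.01. Mrps11, the homologue of bacterial S11, had 2094 and 1805 (-0.65). Mrps24, related to bacterial S3, had 13919 and 12129 (-0.63), and the mitochondria-specific Mrps25 had 2060 and 1843 (-0.59). Each of these 4 genes had a lower unscaled signal in the denervated pool too.

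At the upper end of the Mrps names stood Mrps30, with 7240 in the control and 15719 in the denervated pool (0.69), the highest difference of the 93 genes. Its other probe was above background on neither array. Mrps18b had 2703 and 4804 (0.40), and Mrps2, the homologue of bacterial S2, had 1601 and 2677 (0.31). The 3 Mrps18 paralogues, of which newer nomenclature gives the place of bacterial S18 to Mrps18c alone, lay close together: Mrps18a had 17222 and 28211 (0.28), and Mrps18c had 14344 and 23549 (0.28), so all 3 were above 0 and within 0.12 of each other. The brightest small-subunit probes were those of Mrps16, the homologue of bacterial S16 (35495 and 37398, -0.36) and Mrps28 (35413 and 38969, -0.29). Small-subunit proteins with a bacterial homologue had a median of -0.13 over 15 genes, 8 of them below 0. The mitochondria-specific ones had a median of -0.17 over 11 genes, 10 of them below 0, beside 57.2% of all measured genes. With spike-in scaling 4 of these 11 were below 0, beside 32%. Mrps28 was counted with the mitochondria-specific ones, although newer nomenclature relates it to bacterial S1.

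Among the outer membrane genes Tomm40l stood apart from the others. This paralogue of the TOM channel protein had 2083 in the control and 1379 in the denervated pool, a difference of -1.03 ± 0.20 or 2.04-fold lower, from 1 probe on chr1:173055816-173055875 in mm8. It was under 2-fold when scaled to the median of detected probes (-0.97), with normexp background correction (-0.96), with spike-in scaling (-0.63) and without scaling (-0.59). Tomm40, the channel itself, had 677 and 1098 (0.27), so the paralogues differed by -1.29 ± 0.29 in their difference between pools. Tomm7, a small regulatory subunit, was the only other Tomm gene below 0 (44860 and 53133, -0.19).

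The receptors of the outer membrane were above 0. Tomm20, which binds presequences, had 23700 in the control and 39932 in the denervated pool (0.32), and Tomm22, the central receptor, had 8737 and 12978 (0.14). Tomm70a, the receptor for carrier precursors, had 4839 and 9896 (0.60), but 2 other bright probes of it gave 0.08 and 0.13, and a dim one -0.88. Tomm34, a cytosolic partner of the chaperones that hold precursors, had 843 and 1470 (0.37) and is counted in the Tomm median by its name.

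Among the inner membrane genes the TIM23 complex had a median of -0.25 over 5 genes. Timm23, its channel-forming subunit, had 71887 in the control and 78463 in the denervated pool (-0.31). Timm44, which tethers the import motor to the channel, had 10440 and 10490 (-0.43), and Timm50, the receptor subunit, had 3114 and 4217 (0.00). The Timm17 paralogues of its core differed: Timm17a had 36421 and 41240 (-0.25), and Timm17b had 12445 and 22255 (0.41), a gap of 0.66 ± 0.29. All 4 measured probes of Timm17b were above 0, between 0.24 and 0.47. Timm22, the channel of the carrier pathway, had 6138 and 7688 (-0.11).

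Of the small Tim chaperones of the intermembrane space, 6 carry a Timm name in the array design. Of these 6, 5 were measured, with a median of -0.45 and 4 below 0. A further small Tim, Timm10b, carries another name there, is left out of this median and stood above 0 (0.40). Timm8a1, whose human counterpart is mutated in deafness-dystonia syndrome, had 2783 in the control and 2633 in the denervated pool (-0.51). Its partner paralogue Timm8b had 72558 and 68912 (-0.51), and Timm9 had 4248 and 4200 (-0.45). By their brightest probes these 3 had slightly lower unscaled signals in the denervated pool. The second measured probe of Timm9 was higher there before scaling (2736 in the control and 2984 in the denervated pool, -0.31). Timm13, which pairs with the Timm8 proteins, had 37767 and 50177 (-0.02). Timm10, which forms a hexamer with Timm9, had 14674 and 27582 (0.48), so the subunits of this hexamer lay on opposite sides of 0. Whether probes of these similar genes share signal was not tested.

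Where a gene had several measured probes, they mostly gave close values. Of 40 such genes, 25 had probes within 0.2 of each other and the median range was 0.14. The second brightest probe was on the same side of 0 as the brightest in 32 of the 40. Across the 40 genes, Pearson's r between these 2 probes was only 0.55. The measured probes differed in sign in 10 genes and in their side of 2-fold in 6.

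Several of the discordant probes were dim. Mrpl27, the homologue of bacterial L27, stood at -0.33 by its bright probe and 1.10 by a probe with 61.4 in the control and 177 in the denervated pool. Mrpl1 stood at -0.33 by its brightest probe and -1.66 by one with 299 and 128, and Mrps5 at -0.13 against -1.98 by one with 128 and 43.7. For Mrpl17 a probe with 197 and 207 gave -0.36, against 0.43 for the brightest, and for Mrps18b one with 68.4 and 51.1 gave -0.85. Other disagreements involved brighter probes. Mrpl35, the homologue of bacterial L35, had 0.21 by its brightest probe, -0.46 by a second (946 and 925) and -1.24 by another (978 and 557). Mrpl50, a mitochondria-specific protein, had -0.48 against 0.40 by a probe with 966 and 1721. The signs also differed, but by small amounts, in Mrps7 (0.12 and -0.20), Mrps17 (0.26 and 0.00), Mrps23 (-0.01 and 0.14) and Mrpl38 (0.00 and -0.14). The probes of Mrpl18 and Mrps36 lay on different sides of 2-fold with values close to it.

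**Figure D3:**
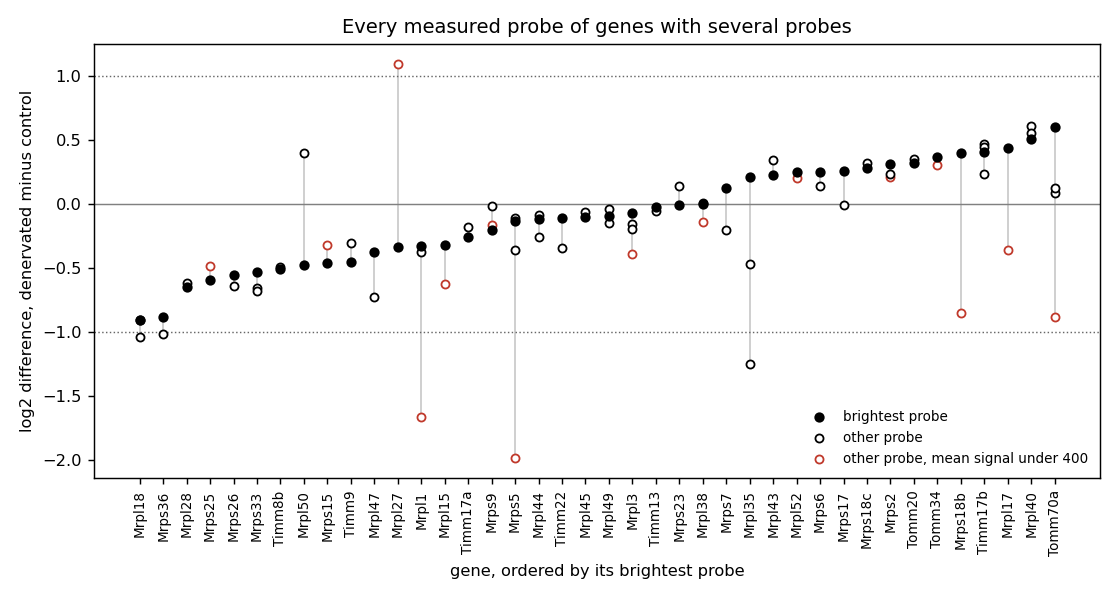
Log2 difference of every measured probe of the 40 genes with several, ordered by the brightest probe (filled points); open points are the other probes, in red where the mean signal was under 400. Grey lines join the probes of a gene and dotted lines mark 2-fold; most genes have short lines, and 3 of the 4 longest end in a dim probe.

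A few probes were above background in the control pool alone. A second probe of Mrpl47, related to bacterial L29, had 78.6 in the control and 5.04 in the denervated pool, at least 5.93-fold higher in the control, while its brightest probe gave 2490 and 2587 (-0.38). Second probes of Tomm40, Mrpl33 and Timm9 had 27.7 and 21.8, 18.0 and 16.7, and 17.2 and 19.7. After scaling the control stood higher by 1.72-fold, at least 1.36-fold and 1.18-fold. The technical errors of these log2 differences were 0.41, 0.46 and 0.43. The unscaled signal of the Timm9 probe was higher in the denervated pool.

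Some proteins of the same complexes carry older names in the array design and so lie outside the 94. Mrpl42, listed as D10Ertd322e, was among the lowest of the mitochondrial ribosome: its brightest probe had 71828 in the control and 49943 in the denervated pool (-0.96), and its second probe 23566 and 13601 (-1.23). Mrpl57, listed as Mrp63, had 0.24, and Mrpl58, a peptide-release factor built into the large subunit and listed as Ict1, had -0.29. Of the import genes, the small Tim Timm10b (listed as Fxc1) had 0.40, with 0.29 by its second probe. Timm21 had -0.44, Timm29 -0.15 and Tomm6 0.12.

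The promoters of the 2 lowest and 2 highest genes with a RefSeq entry are shown because nuclear genes for mitochondria are known to share binding sites for NRF1, for the ETS-family factor GABP and for YY1. Each runs from 250 bases before to 50 bases after the gene's start, 5′ to 3′ on the gene's strand, from RefSeq on GRCm38.p6. Capitals mark matches to the motifs searched. The windows are chr8:71464676-71464975 (plus strand) for Mrpl34, chr11:120484387-120484686 (plus strand) for Mrpl12, chr13:118387203-118387502 (minus strand) for Mrps30 and chr16:57121464-57121763 (plus strand) for Tomm70a. Tomm40l is not shown.
Mrpl34: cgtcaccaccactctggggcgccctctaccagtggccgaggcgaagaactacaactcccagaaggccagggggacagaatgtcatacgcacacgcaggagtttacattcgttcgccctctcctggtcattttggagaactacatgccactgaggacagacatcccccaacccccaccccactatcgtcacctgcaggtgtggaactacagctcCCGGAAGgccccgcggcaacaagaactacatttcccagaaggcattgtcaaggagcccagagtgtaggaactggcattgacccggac
Mrpl12: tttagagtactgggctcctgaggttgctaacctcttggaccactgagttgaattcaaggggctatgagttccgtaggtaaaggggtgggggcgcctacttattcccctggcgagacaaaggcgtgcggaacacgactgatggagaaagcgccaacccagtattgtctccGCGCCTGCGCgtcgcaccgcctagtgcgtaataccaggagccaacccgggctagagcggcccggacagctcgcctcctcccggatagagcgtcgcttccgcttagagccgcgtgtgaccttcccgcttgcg
Mrps30: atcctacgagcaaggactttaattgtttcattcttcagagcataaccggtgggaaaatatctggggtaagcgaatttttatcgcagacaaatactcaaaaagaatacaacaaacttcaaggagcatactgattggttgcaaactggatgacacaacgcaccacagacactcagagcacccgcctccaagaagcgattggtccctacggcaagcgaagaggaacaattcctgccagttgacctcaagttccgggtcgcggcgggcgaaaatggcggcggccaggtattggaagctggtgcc
Tomm70a: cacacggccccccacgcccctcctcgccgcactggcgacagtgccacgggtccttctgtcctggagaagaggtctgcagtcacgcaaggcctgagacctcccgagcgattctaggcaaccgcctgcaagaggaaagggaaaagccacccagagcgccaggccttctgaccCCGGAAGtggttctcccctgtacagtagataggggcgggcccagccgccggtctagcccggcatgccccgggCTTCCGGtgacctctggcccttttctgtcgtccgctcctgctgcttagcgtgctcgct
The Mrpl34 promoter holds 1 ETS motif, which begins 37 bases before the start, and that of Tomm70a holds 2, beginning 80 and 8 bases before it. The Mrpl12 promoter holds a relaxed NRF1 motif 81 bases before the start, and none of the motifs is in the Mrps30 window. The lowest and one of the highest genes thus share the ETS letters.

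The motifs were counted on both strands in the 82 measured genes with an entry and in all 27025 genes of the promoter table, a background that also holds genes not measured in this muscle. The ETS motif CCGGAAG was in 30 of them (36.6%, against 9.93% of all genes). The YY1 motif AAGATGGC was in 12 (14.6%, against 3.19%). A relaxed NRF1 motif, which leaves the central 2 bases of the palindromic NRF1 site free, was in 15 (18.3%, against 7.00%), and the strict NRF1 motif, a subset of it, in 3 (3.66%, against 1.07%). The letters TCAAGGTCA of the estrogen-related receptors were found in 1, Timm8b (1.22%, against 0.466%). The difference between pools varied little with them: the median was 0.01 with and -0.10 without the ETS motif, 0.02 with and -0.10 without the YY1 motif, and -0.20 with and -0.01 without the relaxed NRF1 motif. A match is a run of letters and not a shown binding site.

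One pair of the genes shares a promoter region. Mrpl46 and Mrps11 lie on chromosome 7 in opposite orientation with starts 42 bases apart on GRCm38.p6, and their 300-base windows overlap by 141 bases. Mrpl46, a mitochondria-specific large-subunit protein, had -0.21 (2887 in the control and 3371 in the denervated pool) and Mrps11 -0.65. Both were thus below 0, as were 57.2% of all measured genes. With spike-in scaling Mrpl46 stood at 0.19 and Mrps11 at -0.24, on opposite sides of 0.

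Transcripts for the factors that regulate such nuclear genes spanned a far wider range than the ribosome and import genes. Of 16 measured regulators, 4 were lower by 2-fold or more (25%, beside 8.52% of all measured genes), and the median was -0.48. Higher by 2-fold or more was 1 (6.25%, beside 6.98%). Perm1, a striated-muscle protein that acts with PGC-1 coactivators and estrogen-related receptors, had 17183 in the control and 400.2 in the denervated pool (-5.86). The coactivator Ppargc1a had 7966 and 2646 (-2.02), its relative Ppargc1b 5313 and 2361 (-1.60), and the estrogen-related receptor Esrra 18624 and 9234 (-1.44). These 4 formed the 2-fold lower set, although the 4 probes of Ppargc1b lay between -1.60 and -0.85. Myc, a transcription factor of growth and ribosome production, was the exception in the other direction (377 and 2193, 2.11), with 3 probes between 0.76 and 2.11.

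Apart from Esrra, the factors whose motifs were counted above stayed under 2-fold. Nrf1 had 142 in the control and 223 in the denervated pool (0.22), and the GABP subunits Gabpa and Gabpb1 had -0.21 and 0.00, with Gabpb2 at -0.75 on a dim probe (36.7 and 29.5). Yy1 had 3083 and 2995 (-0.47). The receptors Esrrg and Esrrb stood at -0.80 and -0.35, the factors Creb1 and Sp1 at -0.77 and 0.13, and Pprc1, another PGC-1 family member, at 0.62. Tfam, which packages mitochondrial DNA and starts its transcription, had 15039 and 14433 (-0.49). The probes of Yy1, Gabpa and Gabpb1 differed in sign, those of Gabpb1 lying between -0.13 and 0.79.

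Other nuclear genes of mitochondrial gene expression and import mostly lay near 0, like the ribosome. Of 8 listed ribosomal or ribosome-bound proteins named otherwise none passed 2-fold and the median was -0.26. Mrpl42, also named otherwise in the array design, was not in this list (-0.96, and -1.23 by its second probe). Oxa1l, which inserts new proteins into the inner membrane, had 3075 in the control and 2445 in the denervated pool (-0.76), the small-subunit protein Chchd1 had -0.46, and the large-subunit proteins Gadd45gip1 and Mrpl57 were the highest at 0.15 and 0.24, though each had a second probe below 0 (-0.59 and -0.19). Of 32 translation and ribosome assembly factors the median was -0.06. At least 2-fold lower was 1 (3.1%, beside 8.52% of all measured genes), the rRNA methyltransferase Mrm1 (2737 and 1781, -1.05). Near it stood the release factor Mtrf1l (-0.97), and at the upper end the recycling factor Mrrf (4003 and 8644, 0.68) and the assembly factor Mterf4 (0.43).

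The 16 mitochondrial aminoacyl-tRNA synthetases, which charge tRNA for these ribosomes, had a median of -0.14 and none passed 2-fold. Sars2 (-0.61) and Hars2 (-0.58) were the lowest and Ears2 (0.70) and Vars2 (0.36) the highest. Of 11 genes of mitochondrial transcription and DNA maintenance the median was -0.20. At least 2-fold lower was 1 (9.09%, beside 8.52% of all measured genes), Mterf2 (3577 in the control and 2258 in the denervated pool, -1.10). The nuclease Mgme1 stood at -0.89, and Tfb1m, which modifies the small-subunit rRNA, and the topoisomerase Top1mt at 0.70 and 0.54.

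Import genes outside the Timm and Tomm names gave a median of -0.11 over 22 genes. Lower by 2-fold or more were 2 of them (9.09%, beside 8.52% of all measured genes). These were Dnajc19, a co-chaperone of the import motor (61982 in the control and 39856 in the denervated pool, -1.07), and the metaxin Mtx3 (2104 and 1377, -1.04). The inner membrane peptidase Immp2l was highest (4873 and 11722, 0.83, with 1.47 by its other probe), followed by the sulfhydryl oxidase Gfer (0.38). The 16 chaperones and proteases that receive imported proteins had a median of -0.04 and none passed 2-fold. Their extremes were the prohibitin Phb (-0.90, with -0.07 by its other probe) and the protease Oma1 (-0.45) below 0, and the protease Afg3l2 (0.56) and the chaperonin Hspe1 (0.52) above it.

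**Figure D4:**
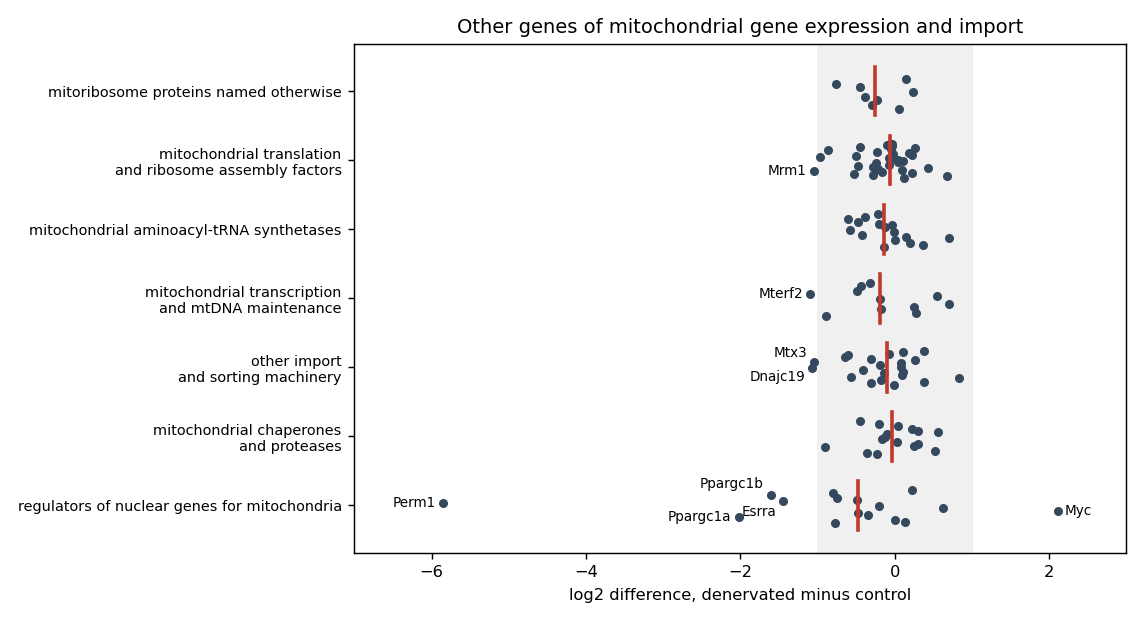
Log2 difference of each measured gene (points) in 7 lists of mitochondrial gene expression, import and regulation, with list medians as red bars; the shaded band spans 2-fold in either direction. The regulators reach from -5.86 to 2.11, while the other lists stay between -1.10 and 0.83.

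Markers of other cells moved between the pools. All 9 measured macrophage markers were above 0, with a median of 1.77. At least 2-fold higher were 8 of them, beside 6.98% of all measured genes. The control signals of these markers ran from 50.7 to 12517. The 6 endothelial markers were all below 0 (median -0.65) and 9 of the 10 muscle markers were (median -0.39), beside 57.2% of all measured genes. With spike-in scaling 5 of the 6 endothelial markers (median -0.24) and 5 of the 10 muscle markers (median 0.02) were below 0, beside 32% of all measured genes. Their part in the differences of the ribosome and import genes was not tested.

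The direction of the small differences depended on the scaling. Scaling to 8 spike-in probes in place of the 75th percentile raised every gene by 0.40, and leaving out the scaling raised every gene by 0.43. The medians then became 0.32 and 0.35 for the large subunit, 0.24 and 0.27 for the small subunit, and 0.34 and 0.37 for import, and the median of all genes became 0.29 and 0.32. With spike-in scaling 23 of the 93 genes were below 0, beside 32% of all measured genes, and 0 were 2-fold lower, beside 4.11%, while Mrps30 and Tomm70a became 2-fold higher, beside 14.6%. Gaps between groups do not move with such a shift, so the respiratory subunits stayed 0.62 below the ribosome and import genes, at a median of -0.32 with spike-in scaling.

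**Figure D5:**
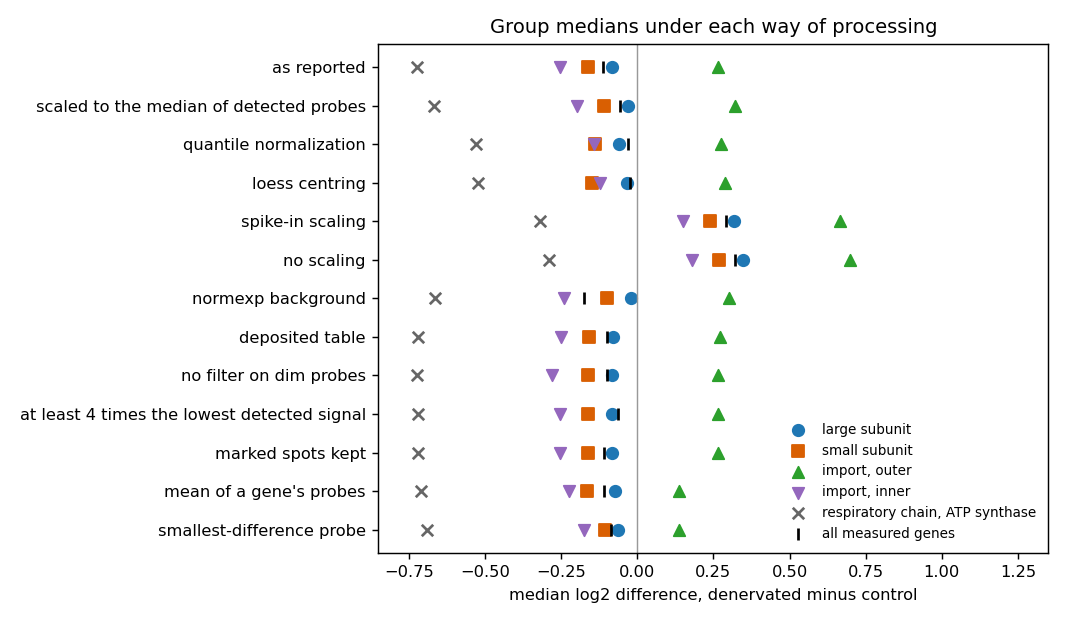
Median log2 difference of each group (symbols) under each way of processing (rows). Spike-in scaling and no scaling move all medians upward together, and in every row the respiratory subunits are lowest and the outer import genes highest.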

How the data were processed

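RNA pooled from the gastrocnemius of 6 mice per group was measured on 2 one-colour arrays (Cy3, 1.65 µg cRNA). The deposited intensity values come from Agilent's Feature Extraction software, version 9.5 per the submitters' processing notes and 9.5.3.1 per the file headers. They were background-subtracted and detrended within each array, per the file headers, with no scaling between arrays and a preset multiplicative error of 10%. The authors also deposited a table of whole-number values, used here as a score and only as an alternative. Set against the intensities, it is linear, scaled to put the 75th percentile over 45018 spots at 100, and the column medians are 10 and 9.

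Spots outside the control classes (43379) were averaged into 41174 probes, leaving out marked spots (87 on the control and 81 on the denervated array). The log2 intensity, less the 75th percentile of these probes on its array, was compared with pandas 2.3.3 under Python 3.11.15. For a bound, a dim probe was taken at its own signal or at the lowest detected signal of its array, whichever was higher. Technical errors are the software's spot errors carried through both arrays. With 1 array per group no test was made. The arrays share 1 slide and 1 scan, so slide position and group cannot be told apart. Probe positions are mm8, per the file headers. 23374 probes were named through a RefSeq accession (GRCm38.p6) and the members by the file's own names.

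Named genes are those past 2-fold, the 4 lowest, 3 highest and 2 brightest in each of the large subunit, small subunit, Tomm and Timm groups, those with unmeasured or discordant probes, paralogues, small Tims, the 2 lowest and 2 highest of each list, and every regulator. Others were named after their values were seen. The members and lists were chosen with earlier results of these data known. Alternatives covered scaling, background (normexp with offset 50, limma 3.58.1 in R 4.3.3), filters, marked spots, probe choice and membership. The scripts were tested on simulated data.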

Additional observations from a re-analysis of the deposited data

How the results depend on the processing

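No paired analysis was possible because each group holds 1 array. Scaling moved the results most. With spike-in scaling the medians changed sign to 0.32 (large subunit), 0.24 (small subunit) and 0.34 (import), and without scaling to 0.35, 0.27 and 0.37. The number of genes at least 2-fold lower went from 2 to 0 under either, and to 1 (Mrpl34) when scaled to the median of detected probes and to 1 (Mrpl34) with normexp background. The number at least 2-fold higher went from 0 to 2 (Mrps30 and Tomm70a) with spike-in scaling and to 2 without scaling. Genes below 0 went from 56 to 23 with spike-in scaling and to 21 without. Under the other alternatives run the 3 medians stayed below 0 and the count below 0 lay between 51 and 60. Of 46 named genes, the mean of a gene's probes moved 8 by more than the technical error, the smallest-difference probe moved 4, and loess and quantile normalization moved 1 each. With 1 array per group, the spread between mice is unknown, and small differences have no settled direction. Probes near background limit Timm8a2 to a bound.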
